A study of Mus musculus with 16 samples.

Results

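COX2, or mt-Co2, is the mitochondrial gene for subunit II of cytochrome c oxidase (complex IV). All alleles of that gene were read in 16 sorted-cell libraries, and the gene was chosen by its place in the genome and by no measured value. RefSeq (GRCm38.p6) puts it on the forward strand of the mitochondrial chromosome, between the tRNA genes TrnD (MT:6942-7011) and TrnK (MT:7700-7764), as a protein-coding gene. The 684 positions with 3 possible non-reference bases each give 2052 of the 48897 alleles in the deposited tables. Each of the 2052 had at least 1 non-reference read. Of these, 128 reached a fraction of 1% with at least 5 reads in at least 1 library (called counted below), against 3487 in the whole genome, and 1924 never did.

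The libraries are bulk ATAC-seq of cells sorted from femurs of mice aged 3 months that are homozygous for PolG D257A, an allele of the mitochondrial DNA polymerase without proofreading. There are 8 subsets, named by the markers on their labels as CD45, CD24, CD29, CD24_CD29, CD105, Thy, 6C3 and Thy_6C3, with a replicate 1 and a replicate 2 each. Every library carries the same genotype and age, and no library of another genotype was analysed here, so no level below can be set against a mouse with normal proofreading. The labels call all of the cells skeletal, including the CD45 sort, and give neither gates nor the mice behind a library, so p-values rest on how far these libraries vary, and that variation may be technical only. Identity of the subsets could not be checked against markers, because the tables hold mitochondrial bases only.

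Cytochrome c oxidase passes electrons from cytochrome c to oxygen at the end of the respiratory chain. Subunit II takes up the electrons at a pair of copper ions (the copper A site), held by residues of its soluble domain, and is anchored in the inner membrane by a pair of helices. Mitochondrial DNA is present in many copies per cell, so a change can be carried by any share of the copies. A fraction in a pool of cells does not tell whether a few cells carry an allele at a high level or many cells at a low one.

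The alleles on which the results turn are shown in their reference sequence, forward strand, 5′ to 3′, with the base that changes in capitals at the centre of 31 bases. These were read from the reference bases in the deposited tables, and alleles are named by reference base, position and new base. The first pair were counted in every library, the next 5 differed between replicate numbers, and A7494G changes a copper ligand and C7533T stood lowest in CD24_CD29 cells.
C7166T (MT:7151-7181): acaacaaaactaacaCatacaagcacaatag
A7024C (MT:7009-7039): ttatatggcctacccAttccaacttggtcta
A7063G (MT:7048-7078): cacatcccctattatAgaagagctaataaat
A7133T (MT:7118-7148): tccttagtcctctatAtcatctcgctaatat
A7268G (MT:7253-7283): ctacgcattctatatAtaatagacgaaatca
C7621T (MT:7606-7636): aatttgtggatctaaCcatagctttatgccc
T7650C (MT:7635-7665): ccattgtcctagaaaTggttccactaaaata
A7494G (MT:7479-7509): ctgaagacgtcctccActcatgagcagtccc
C7533T (MT:7518-7548): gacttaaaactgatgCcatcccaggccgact

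Mean coverage over the gene ran from 6699 reads per position in CD24_CD29 replicate 2 to 72577 in CD29 replicate 1. A count of 0 therefore allows, at 3 reads, a fraction of up to 0.0448% in the first and 0.00413% in the second. Intervals for single libraries are exact (Clopper-Pearson) 95% intervals and, like these limits, cover counting error only. Thy replicate 2 stood apart in the whole genome, with 2530 counted alleles against 98 to 416 in the other 15 libraries, and values that rest on it are given with and without it.

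The load of the gene, the mean over its positions of the summed non-reference fraction, was 0.494% ± 0.166 (SD, n = 16 libraries). Without Thy replicate 2 it was 0.453% ± 0.030 (SD, n = 15), from 0.386% in CD24 replicate 2 to 0.496% in 6C3 replicate 1, and Thy replicate 2 alone had 1.11%. In each library the load of mt-Co2 was close to that of all other positions, at 0.989 to 1.04 times their load, and it was the higher of the pair in 14 of 16 libraries, all but Thy replicate 2 and CD24_CD29 replicate 2. No test was made of this ratio. The load includes sequencing errors, and most of it came from alleles under 1%, which made up 0.371% to 0.476% in the 15 libraries, against 0.0142% to 0.0428% from counted alleles.

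By subset, CD24 cells had the lowest load of the gene, at 0.401% ± 0.0217 (SD, n = 2), followed by CD105 at 0.432% ± 0.0112 and CD45 at 0.439% ± 0.0276. Thy_6C3 had 0.464% ± 0.00315, CD29 0.469% ± 0.0187, CD24_CD29 0.477% ± 0.00954 and 6C3 0.482% ± 0.0194. From CD105 to 6C3, neighbours in this order differed by less than the SD of at least 1 of the pair, and only the step from CD24 to CD105 was larger than both SDs. Thy cells, at 0.784% ± 0.459, held the library that stood apart.

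**Figure D1:**
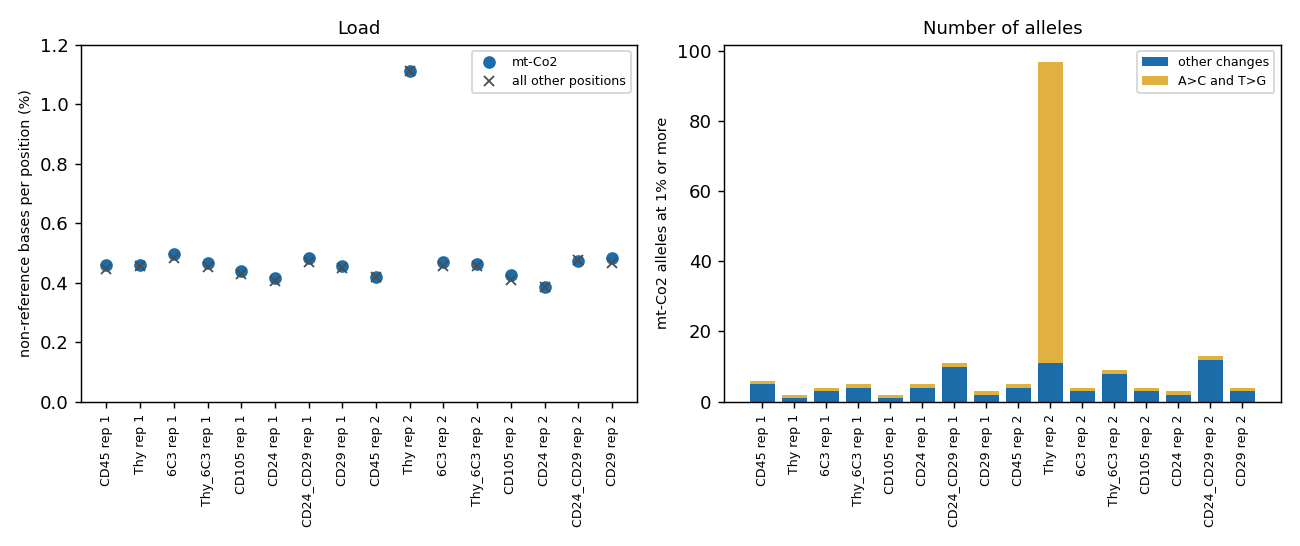
Left, non-reference bases per position (%) in mt-Co2 (circles) and at all other mitochondrial positions (crosses) in each of the 16 libraries. Right, mt-Co2 alleles at 1% or more per library, split into A>C and T>G changes and all others; Thy replicate 2 has 97 alleles and a load of 1.11%, and no other library has more than 13 alleles or a load above 0.496%.

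Counted alleles numbered 2 to 13 per library in the 15 libraries and 97 in Thy replicate 2. CD24_CD29 had the most of the 15, with 11 in replicate 1 and 13 in replicate 2, and Thy replicate 1 and CD105 replicate 1 had the fewest, with 2 each. In the whole genome CD24_CD29 likewise had the most of the 15, with 280 in replicate 1 and 416 in replicate 2. Next in each number were Thy replicate 1 with 147 and Thy_6C3 replicate 2 with 266. In Thy replicate 2, A>C and T>G changes made up 86 of the 97, and 85 of these were counted in no other library. A>C changes averaged 78.7 per 10000 reads in mt-Co2 in that library and 76.4 at other positions, against 9.2 to 14.9 in the gene in the other 15. Setting those 85 aside leaves 43 alleles in mt-Co2 and 1351 in the genome. The 43 still include 7 other transversions counted in Thy replicate 2 alone.

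The other protein genes of complex IV stood near mt-Co2 by these measures. With the A>C and T>G changes of Thy replicate 2 alone set aside in every gene, mt-Co2 held 62.9 counted alleles per 1000 bases, COX1 65.4 and COX3 72.7. Among the 12 genes of 500 or more bases mt-Co2 ranked 12 of 12 by this density, which ran up to 101 in mt-Rnr2, and its load ranked level with ND5. No test was made of these differences. Across the 16 libraries the load of mt-Co2 followed that of the other genes, most closely that of ND1, ND2 and COX1 (r = 0.999 for each). Without Thy replicate 2 the 3 genes most like it were COX1 (r = 0.962), mt-Rnr1 (0.957) and COX3 (0.957), where the points share libraries and depth, and genes differ in base composition.

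Of the 43 alleles, 28 were transitions, with 13 C>T, 7 T>C, 5 A>G and 3 G>A. C>T changes averaged 14.8 to 19.5 per 10000 reads in the gene in the 15 libraries (median 18.0), against a median of 12.2 at other positions. T>C changes had a median of 17.9, and 17 elsewhere. C7166T, described next, is 1 of the 173 alleles behind the C>T mean and weighs heavily in it, with means of 9.34% in replicate 1 and 6.49% in replicate 2. The C>T mean therefore does not show that C>T changes were raised across the gene. G>A in mt-Co2 had a median of 8.28 per 10000, and 8.57 elsewhere.

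Only 2 alleles of mt-Co2 were counted in all 16 libraries, of 24 in the genome. The first, C7166T, changes codon CAT to TAT (H52Y, a histidine to tyrosine change). In replicate 1 its lowest, median and highest fractions over the 8 libraries were 7.38%, 9.27% and 11.3%, and in replicate 2 they were 5.53%, 6.23% and 7.92%. It was thus the fifth highest allele of the genome in replicate 1 and the seventh in replicate 2. The fraction was higher in replicate 1 in 7 of 8 subsets, and the libraries of the numbers overlapped only through CD24_CD29, with 7.38% (6.92 to 7.86) in replicate 1 and 7.92% (7.27 to 8.60) in replicate 2.

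C7166T had a mean of 9.34% ± 1.35 (SD, n = 8) in replicate 1 and 6.49% ± 0.845 in replicate 2, a log2 change of -0.57 ± 0.28 (SE) that did not pass edgeR's quasi-likelihood test (adjusted p = 0.593). An exact permutation test over all swaps of numbers within subsets gave p = 0.0156, two-sided, and 0.206 after adjustment over all tested alleles. With coverage as an offset the edgeR adjusted p was 0.0371, the only 1 of 25 alternatives in which it passed, over a range of 0.0371 to 0.781.

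The order of the subsets at C7166T was not the same in the 2 numbers. In replicate 1 CD24 (11.3%) and Thy (11%) were highest and had overlapping intervals, followed by 6C3 (9.60%), CD105 (9.39%), CD29 (9.15%), Thy_6C3 (8.76%), CD45 (8.04%) and CD24_CD29 (7.38%). In replicate 2 CD24_CD29 (7.92%) and CD105 (7.53%) were highest and also overlapped, followed by CD24 (6.70%), CD29 (6.28%), 6C3 (6.18%), Thy_6C3 (6.02%), CD45 (5.75%) and Thy (5.53%). CD24_CD29 and Thy thus changed ends of the order. Apart from the step between Thy and 6C3 in replicate 1 and between CD105 and CD24 in replicate 2, intervals of neighbours overlapped. Differences between subsets did not pass at this allele (edgeR, adjusted p = 1.0).

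The second, A7024C, is a synonymous change (P4P) in the fourth codon. Its lowest, median and highest fractions were 1.55%, 1.79% and 2.01% in replicate 1 and 1.67%, 1.88% and 2.18% in replicate 2. The fractions overlapped almost fully, with means of 1.78% ± 0.142 (SD, n = 8) and 1.90% ± 0.172, and the log2 change of 0.10 ± 0.24 (SE) did not pass edgeR's test (adjusted p = 0.811). It is an A>C change, the kind that was raised in Thy replicate 2, where it had its highest value of 2.18% (1.94 to 2.44). T7019G (Y3D), also among the 5 highest alleles of the gene in replicate 2, was at 2.0% in that library and at 0.51% to 0.695% in the others. In the other 15 libraries the mean of A7024C, 1.82%, was the second highest of 5629 A>C alleles, whose median was 0.0751%, and 3 A>C alleles in the genome were counted in all 16 libraries.

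**Figure D2:**
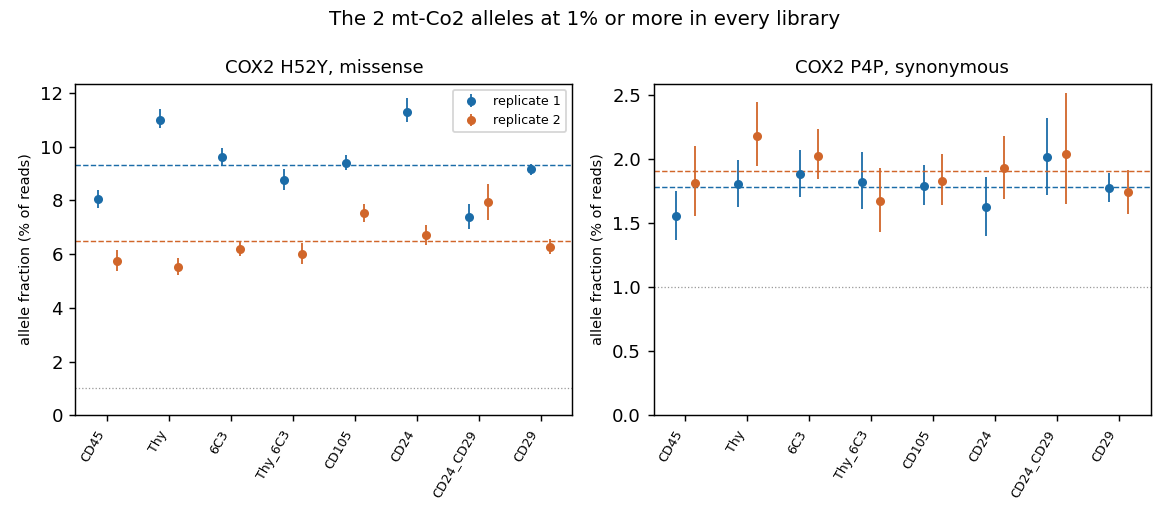
Fractions (% of reads) of C7166T (H52Y, left) and A7024C (P4P, right) in each library by subset, with exact 95% intervals, dashed lines at the mean of each replicate number and a dotted line at 1%. H52Y lies between 7.38% and 11.3% in replicate 1 and between 5.53% and 7.92% in replicate 2, while P4P lies between 1.55% and 2.18% throughout.

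Among alleles outside the gene that were counted in all 8 libraries of a number, the profile nearest to C7166T was that of T2674A in mt-Rnr2, the large ribosomal RNA gene, in replicate 1 (r = 0.973 over 8 libraries, the highest of 51 candidates, whose median was 0.0346). T2674A had a similar mean there, at 9.44% ± 1.48 (SD, n = 8). In replicate 2 the nearest was C2974T in ND1, a subunit of complex I, at r = 0.779 of 57 candidates and a mean of 4.06% ± 0.570. The nearest to A7024C were C14024T in ND6 in replicate 1 (r = 0.621) and T16108G in the control region in replicate 2 (r = 0.789). These correlations describe 8 libraries each, were the best of many, and named a different allele in each number.

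Libraries labelled replicate 2 and replicate 1 were compared at each allele with the subset held in the model. In the genome edgeR's quasi-likelihood test called 203 of 3487 alleles (5.82%), with 107 higher in replicate 2 (3.07%) and 96 in replicate 1 (2.75%). In mt-Co2 it called 5 of the 128 tested, with A7063G, A7133T and A7268G higher in replicate 1 and C7621T and T7650C higher in replicate 2. The 128 include the 85 alleles that passed the filter through Thy replicate 2 alone. With that library left out and alleles chosen anew, a choice made after the data were seen, 6 of 36 alleles of the gene were called, and 196 of 1130 in the genome, 17.3%. At a threshold of 2%, 1 of 8 was called in the gene, C7621T, and 29.9% of the genome's alleles. The share called in mt-Co2 was thus 3.91% in the first count (genome 5.82%) and 16.7% with alleles chosen anew (genome 17.3%). At the threshold of 2% it was 12.5% (genome 29.9%), which rests on 1 allele. It was under that of the genome each time, and no test was made of these differences.

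A7063G is a synonymous change of a methionine codon (M17M, ATA to ATG). Its lowest, median and highest fractions were 0.270%, 0.524% and 1.24% in replicate 1, and 0%, 0.0194% and 0.145% in replicate 2. Every library of replicate 1 stood above every library of replicate 2, and CD24 and CD24_CD29 had 0 reads with the allele in replicate 2, which allows up to 0.0149% and 0.0407%. The log2 change from replicate 1 to replicate 2 was -4.84 ± 0.59 (SE), with an edgeR adjusted p of 4.95e-05.

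A7133T changes isoleucine to phenylalanine (I41F). It ran over 0.30%, 0.516% and 1.35% (lowest, median, highest) in replicate 1 and 0.0815%, 0.101% and 0.205% in replicate 2, again with no overlap. The highest value was in CD24_CD29 replicate 1, and the log2 change was -2.26 ± 0.35 (SE), with an edgeR adjusted p of 0.000495.

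A7268G changes methionine to valine (M86V). In replicate 1 it ran over 0.356%, 0.940% and 1.22% and was counted in 4 libraries, and in replicate 2 over 0%, 0.105% and 0.586% and was counted in none. The numbers overlapped, since Thy_6C3 replicate 2 (0.586%) stood above Thy replicate 1 (0.356%), but replicate 1 was higher in 8 of 8 subsets. The log2 change was -3.27 ± 0.70 (SE), with an edgeR adjusted p of 0.00783, which rose to as much as 0.231 when alleles of lower fraction were tested along with it.

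C7621T, synonymous in an asparagine codon (N203N) next to a copper ligand, was counted in 6 libraries of replicate 2 and in 1 of replicate 1. It ran over 0.510%, 1.53% and 2.92% in replicate 2 and 0.121%, 0.20% and 1.40% in replicate 1. The value of 1.40% (1.21 to 1.62) belonged to CD24_CD29, the only subset in which replicate 1 was higher, and the next highest of replicate 1 was 0.368%. The log2 change was 2.62 ± 0.57 (SE), with an edgeR adjusted p of 0.00847. Without Thy replicate 1, Thy replicate 2 or both it was 0.101, with C7621T no longer called, but 0.0415 where alleles were also chosen anew without Thy replicate 2, and over all alternatives it ran from 2.59e-05 to 0.220.

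T7650C changes methionine to threonine (M213T). It ran over 0.368%, 0.963% and 1.91% in replicate 2, with CD105 highest, and 0.0970%, 0.165% and 0.227% in replicate 1, with no overlap. The log2 change was 2.49 ± 0.30 (SE), the smallest p in the gene (edgeR adjusted p = 3.79e-05).

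A7063G, A7133T and T7650C were thus the alleles whose libraries did not overlap between numbers, 3 of 128, where 125 of 3487 in the genome (3.58%) did not overlap, 1.78% with replicate 1 and 1.81% with replicate 2 the higher. They also kept an edgeR or DESeq2 adjusted p under 0.05 in 24 of 24 alternatives other than the exact test. In the exact test over swaps, A7063G, A7133T, A7268G and T7650C reached p = 0.00781, the smallest it can give, and C7621T 0.0234, two-sided. After adjustment over all 3487 alleles that exact test called none, with 392 at an unadjusted p under 0.05 in the genome and 12 in mt-Co2, while DESeq2 called 6 in the gene and 7.28% of the genome's alleles, and edgeR with a coverage offset 7 and 6.4%.

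**Figure D3:**
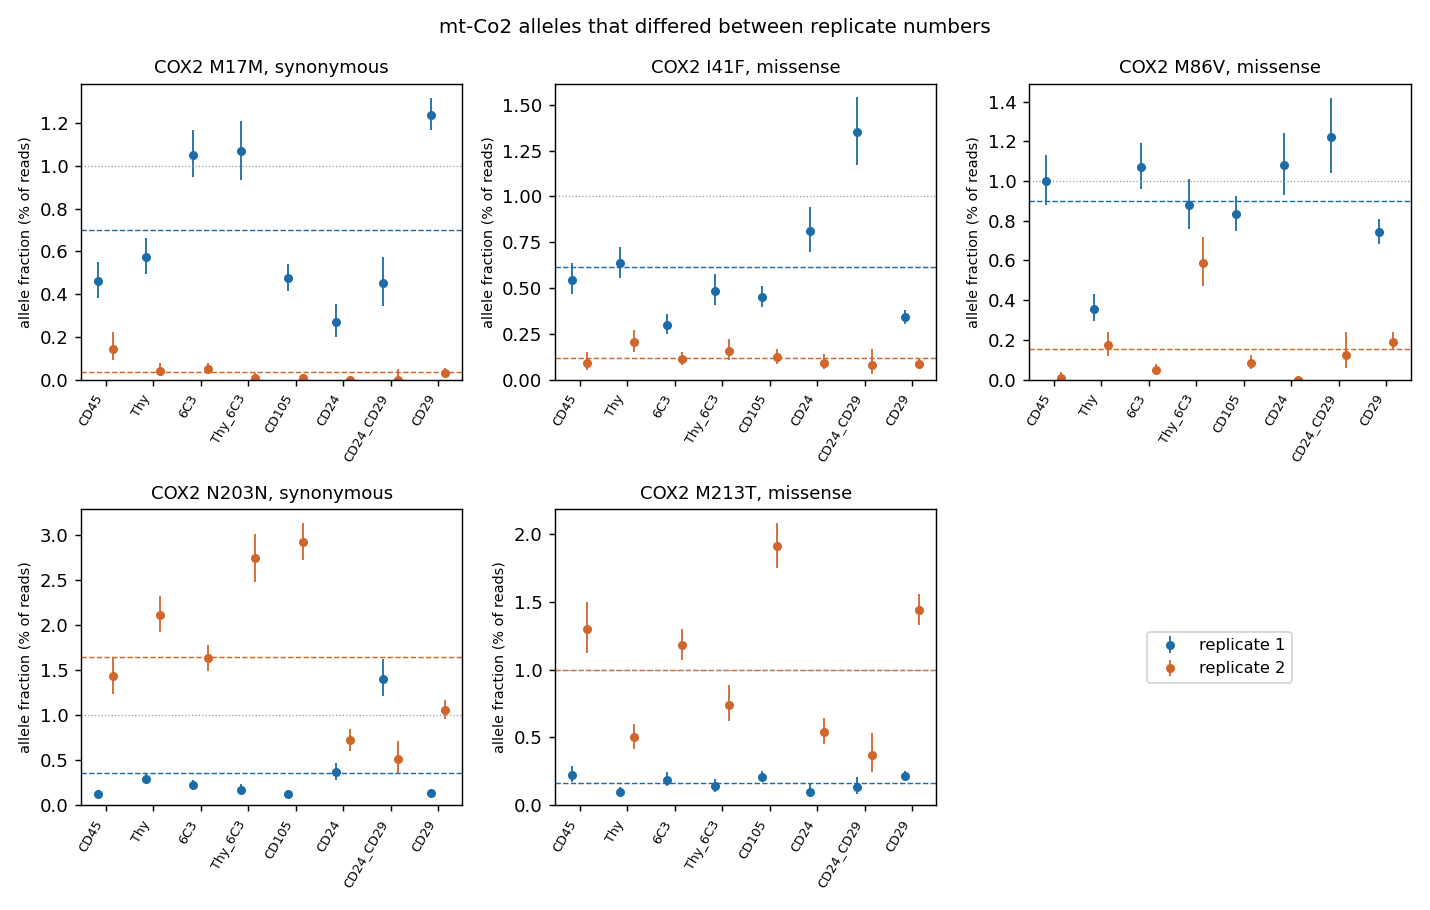
Fractions (% of reads) of the 5 mt-Co2 alleles called between replicate numbers, by subset, with exact 95% intervals and dashed lines at the mean of each number. The 3 upper panels are higher in replicate 1 and the 2 lower ones in replicate 2; in N203N the CD24_CD29 libraries go the other way, at 1.40% in replicate 1 and 0.510% in replicate 2.

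A sixth allele, C7446T (P145L), was higher in replicate 2 in 7 of 8 subsets and had an edgeR adjusted p of 0.0629. Its mean was 0.576% ± 0.406 (SD, n = 8) against 0.236% ± 0.179, and it passed in 3 of 24 alternatives, DESeq2 among them (adjusted p = 0.00141). Looser filters test more alleles, and called 1.07% of them at a threshold of 0.5%, 1.48% at a mean fraction of 0.2% or more and 0.344% with no fraction filter. Under each of the 3, A7268G and C7621T were no longer called and T7194C (V61A) was, and at 0.5% alone A7501G (W163W) was called too. T7194C and A7501G stayed under 1% in every library and were noticed after their values were seen. T7194C ran from 0.318% to 0.880% in replicate 2 and from 0.0475% to 0.493% in replicate 1 (edgeR adjusted p = 0.0128 at a threshold of 0.5%). A7501G had 0.106% to 0.515% and 0.0114% to 0.197% (edgeR adjusted p = 0.0201 at 0.5%, and 0.0542 with no fraction filter).

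Between the 8 subsets edgeR's quasi-likelihood test called 0 of 3487 alleles, 0%, with 52 at an unadjusted p under 0.05, of which 1 lay in mt-Co2. In the 8 contrasts of a subset with the mean of the other 7 it also called 0 alleles, 0% in each. With the replicate number as a block it called 2 in the genome for Thy (0.0574%) and 0 in mt-Co2. Alleles of the gene at an unadjusted p under 0.05 numbered 65 in the Thy contrast (1700 in the genome), 7 in that of CD24_CD29 (219), 3 in that of Thy_6C3 (109), 2 in that of CD24 (42), 1 in that of CD45 (4) and 0 in those of 6C3 (15), CD105 (6) and CD29 (31). Most of the alleles tested had passed the filter through Thy replicate 2, so the count for Thy had to be high. Other ways to fit the same counts did make calls. DESeq2 called 87 alleles of the gene between subsets, beside 59.5% of those tested in the genome. In the Thy contrast it called 90 (genome 66.5%), in that of CD24_CD29 5 (genome 5.45%) and in that of Thy_6C3 1 (genome 0.918%). edgeR with coverage as an offset called 90 in the Thy contrast (genome 66.4%) and 7 in that of CD24_CD29 (genome 4.22%). Without Thy replicate 1, with Thy replicate 2 left as the only Thy library and assumed to vary like the other subsets, edgeR called 92 between subsets (genome 65.8%), 92 in the Thy contrast (genome 68.7%) and 5 in that of CD24 (genome 4.62%).

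In the test over all 8 subsets the allele of mt-Co2 with the smallest p was C7533T (A174V, edgeR adjusted p = 0.883), which was lowest in CD24_CD29 cells. CD24_CD29 had 1 read with the allele in each library, of 11020 in replicate 1 (0.00907%, 0.00023 to 0.0505) and of 5519 in replicate 2 (0.0181%, 0.000459 to 0.101). The other subsets ran from 0.103% in 6C3 to 1.10% (0.963 to 1.25) in CD45 in replicate 1, and from 0.138% in CD29 to 0.828% in Thy_6C3 in replicate 2. Both CD24_CD29 libraries thus stood below all 14 others.

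For C7533T in CD24_CD29 the fitted log2 difference from the other 7 subsets was -4.36 ± 0.91 (SE), a size that depends on single reads. It did not pass edgeR's test (adjusted p = 0.209, and 0.107 with the replicate block), but did with DESeq2 (adjusted p = 0.00498) and with edgeR and coverage as an offset (adjusted p = 0.0298). Without CD24_CD29 replicate 1 the allele of the gene called in this contrast was another one, C7309T (genome 0.66% called), which then rested on replicate 2 alone, with the spread supplied by the other subsets. C7533T also had the smallest p in the gene for CD45, where it was at 1.10% and 0.279% (edgeR adjusted p = 1.0).

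For the other subsets the allele of the gene with the smallest p was also not called by edgeR. G7406A (E132K) had 0 of 20415 and 0 of 21364 reads in the CD24 libraries, which allows up to 0.0147% and 0.0140%, against 0.0348% to 1.80% in the other 14 (edgeR adjusted p = 0.978). T7019C (Y3H) was at 0.227% and 0.143% in Thy_6C3, the lowest value of each number (edgeR adjusted p = 1.0). T7515G (L168R) was at 0.176% and 1.12% in Thy, where T>G changes were raised in replicate 2 (edgeR adjusted p = 0.0985). C7309T (T99T) was at 0.0972% and 0.0911% in CD105, and G7613A, a stop described next, was the nearest for 6C3 and CD29 (edgeR adjusted p from 0.985 to 1.0 for these 3 contrasts).

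Alleles seen in few libraries made up most of the gene's counted alleles. Of the 43, 33 were counted in a single library, 3 in 2, 2 in 3, 2 in 4, 1 in 7 and the pair described above in all 16. Within replicate 1, 11 of 17 counted alleles of mt-Co2 (64.7%) were counted in 1 library, and 320 of 493 in the genome (64.9%). In replicate 2 without A>C and T>G changes, 24 of 29 (82.8%) were, and 750 of 930 in the genome (80.6%).

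Alleles counted in 1 library of their replicate number, leaving aside the A>C and T>G changes of Thy replicate 2, were most numerous in CD24_CD29 cells. CD24_CD29 replicate 1 had 6, from 1.15% to 1.80%, and replicate 2 had 9, from 1.15% to 2.70%, of which 5 and 8 were transitions. CD24_CD29 replicate 2 held the highest of all, C7386T (T125M) at 2.70% (2.32 to 3.13, 173 of 6398 reads), followed by C7021T (Y3Y) at 2.47% and C7309T at 2.03% (1.71 to 2.40). C7386T stayed at or under 0.217% elsewhere and had 0 of 12695 reads in CD24_CD29 replicate 1, which allows up to 0.0236%. In replicate 1 the highest was G7406A at 1.80% (1.59 to 2.02). Outside Thy replicate 2, the CD24_CD29 libraries also had the most counted alleles in the genome, with 280 and 416. Mean coverage of the gene was 13000 and 6699 in these libraries, the lowest of each number, and its part in the number of alleles was not tested.

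Thy_6C3 replicate 2 had 6 such alleles, led by C7486T (D158D) at 1.55% (1.36 to 1.77). Thy replicate 2 had 7, all of them transversions, led by T7203A (I64N) at 1.80%. The A>C and T>G changes of that library reached 2.51% (2.29 to 2.75) at A7559C (T183P). CD45 had C7533T and T7293A (V94E, 1.08%) in replicates 1 and 2, CD24 had A7615G (G201G, 1.24%) in replicate 1 with 1 other, and T7025C (F5L, 1.08%) in replicate 2, and Thy_6C3 replicate 1 had A7049T (T13S, 1.04%) with 1 other. In 6C3, CD105 and CD29, the subsets with the highest mean coverage of the gene over their 2 libraries, and in Thy replicate 1, no allele was counted in that library alone.

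**Figure D4:**
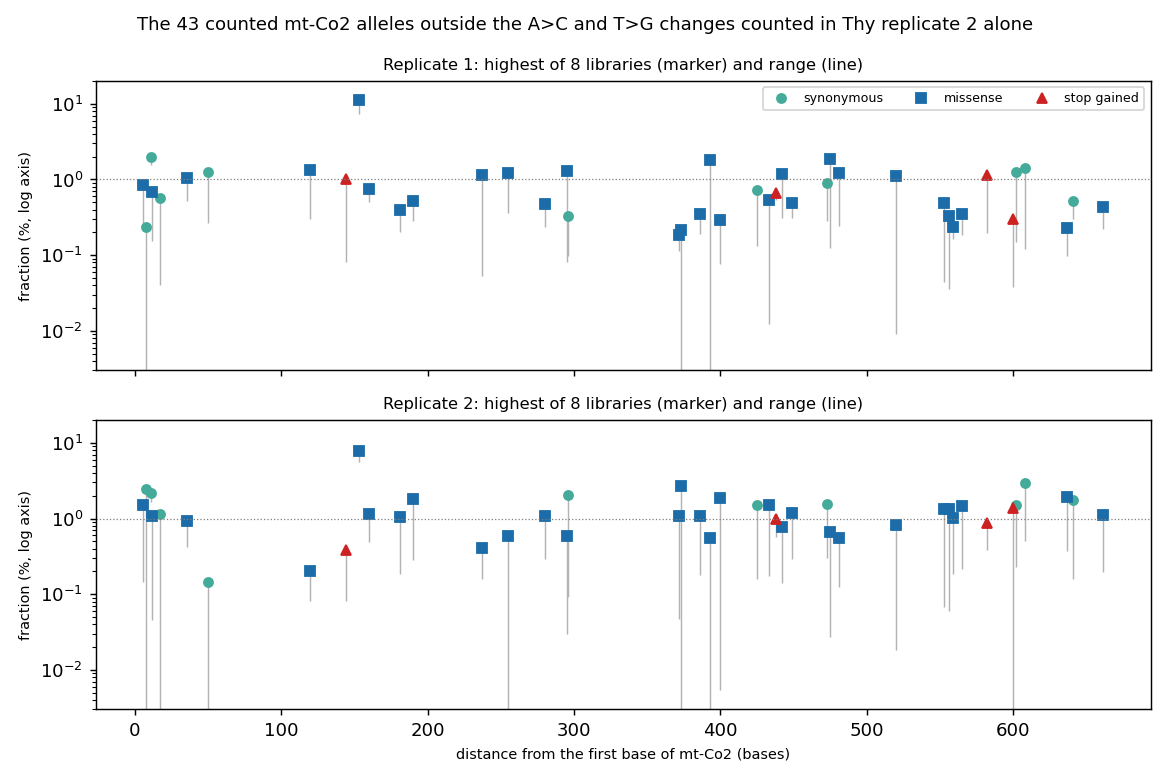
The 43 alleles along mt-Co2 in replicate 1 (upper) and replicate 2 (lower), by distance from the first base of the gene in bases. Markers give the highest and lines the range of the fraction over 8 libraries (% of reads, log axis, with lines at the lower edge for values below 0.003% or 0), coloured by the effect on the protein; C7166T stands alone above 5% in both numbers.

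Of the 43 alleles, 29 were missense, 10 synonymous and 4 made a stop codon. Synonymous alleles were thus 23.3% of those counted, and 22.7% of the 2052 possible alleles are synonymous. Stop alleles were 9.30% of those counted and 5.51% of those possible. These shares rest in part on Thy replicate 2. It alone held 7 of the alleles, all of which change the protein, the stop allele G7451T among them. Without that library 36 alleles were counted and the synonymous share was 27.8%. For transitions alone the synonymous shares were 32.1% of 28 counted and 36.8% possible. In the other 12 protein genes 29.4% of 851 counted alleles were synonymous, with 23.3% possible, and in COX1 40.6% of 101. Stop alleles were 4.11% of the 851, with 5.29% possible, 2.97% of the 101 in COX1 and 0 of 57 in COX3. The 9.30% in mt-Co2 rests on 4 alleles. No test was made of these shares, since alleles of a gene share libraries. Median fractions over the 15 libraries were 0.120% for all possible synonymous, 0.124% for missense and 0.149% for stop alleles in mt-Co2. These classes differ in kind of change, since 93 of the 113 possible stop alleles are transversions, and 214 of the 466 synonymous ones. For transitions alone the medians were 0.113%, 0.126% and 0.111% in the same order, and for transversions alone 0.143%, 0.124% and 0.152%.

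By codon position, 13 of the 43 alleles lay at the first, 18 at the second and 12 at the third base (30.2%, 41.9% and 27.9%). Each base holds 33.3% of the possible alleles. In the other 12 protein genes the shares were 32.8%, 33.7% and 33.5% of 851, and the differences were not tested. Along the protein, 11, 7, 13 and 12 of the 43 lay in successive stretches of 57 codons, of which 7, 6, 11 and 9 changed the protein. Every stretch thus held counted alleles.

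The 4 alleles that made a stop were each near 1% in 1 library. C7595T (Q195*) was at 1.15% (0.965 to 1.36) in CD24_CD29 replicate 1 and at 0.195% to 0.873% in the other 15. A stop at this codon lies just before the copper ligand motif. G7613A turns a glycine codon into AGA, a stop in the vertebrate mitochondrial code (G201*), and was at 1.36% (1.15 to 1.58) in Thy_6C3 replicate 2 and at or under 0.362% elsewhere. A7157T (K49*) was at 1.01% (0.871 to 1.16) in Thy_6C3 replicate 1, and G7451T (E147*) at 1.0% (0.878 to 1.14) in Thy replicate 2, where its 0.543% to 0.779% elsewhere left it only just counted. A further 3 stop alleles belonged to the A>C and T>G changes of Thy replicate 2 alone, and no counted allele changed the start codon or removed the stop.

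The copper A ligands were located by their motifs in the translated reference bases, at codons 161, 196, 198, 200, 204 and 207 of 228, the last of which is the stop. Codons 196 to 207 read as follows, with the 5 ligand codons in capitals.
Copper A ligand codons (MT:7598-7633): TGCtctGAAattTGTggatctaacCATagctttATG

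Of the alleles that change a ligand, 1 was counted outside the A>C and T>G changes of Thy replicate 2. A7494G replaces the histidine at codon 161 with arginine (H161R). It was at 1.22% (1.03 to 1.43, 147 of 12035 reads) in CD24_CD29 replicate 1, at 0.242% to 0.570% in the other 7 libraries of that number and at 0.126% to 0.555% in replicate 2. In CD24_CD29 replicate 2 it was at 0.127% (0.0549 to 0.25, 8 of 6297 reads), near the low end of that number. The other library of the subset thus held the allele but did not show the high fraction. A7494C (H161P), T7598G (C196G) and T7624G (H204Q) were counted in Thy replicate 2 alone, at 1.02%, 1.18% and 1.03%.

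Summed over all changes of the amino acid, the ligand codons had median fractions over the 16 libraries of 1.38% (161), 1.21% (196), 0.868% (198), 0.766% (200), 1.06% (204) and 0.983% (207). The median over all 228 codons of the gene was 0.967%, from 0.496% to 8.96%. The ligand codons thus stood on both sides of it, and the codon of C7166T gave the highest value. At this depth low fractions at these codons include sequencing errors, so they do not measure how often a ligand is lost.

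Beside the pair counted in every library and the alleles called between replicate numbers, 4 were counted more than once. C7308T (T99I) reached 1.08% in CD45 and 1.28% in CD24_CD29 in replicate 1, and T7488C (V159A) 1.03% and 1.86% in the same pair. C7438T (V142V) reached 1.51% in Thy and 1.52% in CD24_CD29 in replicate 2. A7615G was at 1.24% in CD24 replicate 1, 1.31% in Thy replicate 2 and 1.51% in CD24_CD29 replicate 2. All 4 included a CD24_CD29 library, as did A7268G and C7621T among the alleles called between numbers. A7063G and T7650C, also counted more than once, were counted in no CD24_CD29 library.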

How the data were processed

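Per the labels' protocols the libraries are ATAC-seq. The tools named in the submitters' processing notes are BWA 0.7.17, cutadapt 2.10 and bcl2fastq 2.20, with the build GRCm38/mm10, and duplicate or nuclear-copy handling is not given in the sources used here. The authors deposited counts of each base at each mitochondrial position per library, not normalized, and coverage is their sum. Protein changes were read from the reference bases with the vertebrate mitochondrial code (Biopython 1.88).

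Alleles at 1% or more with at least 5 counts in at least 1 library were tested with edgeR 4.0.16 (R 4.3.3). Each library gave a pair of columns, the count of the allele and the coverage minus that count. The model held library and subset terms, with Benjamini-Hochberg adjustment over 3487 alleles at 0.05. The fit left 8 residual degrees of freedom (7 between numbers). It was also run on simulated data in which every library had the same spread and none was like Thy replicate 2. Those data cannot show how the fit behaves with that library present. Alternatives were DESeq2 1.42.0, a coverage offset, other filters, the replicate block, exact swaps and libraries left out. Same-numbered libraries deviated together in 28 of 28 pairs of subsets (correlation 0.343 to 0.863), though the labels state no pairing. The main subset tests held no replicate term, so differences between numbers stayed in their error, and the replicate block was run as an alternative.

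Members and lists were chosen with earlier results of these data known. Alleles named are the 5 highest per replicate number, those counted in all 8 libraries of a number, the highest allele of each library alone, the leading allele of each test, stop or start changes, and copper ligand changes.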

Additional observations from a re-analysis of the deposited data

Results flagged for a closer look

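In 22 groups of 8 libraries, the gap of the highest or lowest library to its neighbour was set against the group's range, and 7 groups had a library that stood apart. Chance gives about 1 in 20 for groups not chosen by their values, but alleles were named partly for their values and Thy replicate 2 accounts for 3 of the 7, so no such rate applies to this number. Thy replicate 2 had a load of 1.11% (next 0.482%), 97 counted alleles (next 13) and T7019G (Y3D) at 2.0% (next 0.640%). CD24_CD29 replicate 1 had 11 counted alleles (next 6) and C7621T at 1.40% (next 0.368%). It also had the most counted alleles of replicate 1 in the genome, 280 (next 147). In replicate 2, A7268G was at 0.586% in Thy_6C3 (next 0.190%) and A7063G at 0.145% in CD45 (next 0.0482%).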

How the results depend on the processing

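No subset call held across the ways of fitting. DESeq2 called 87 alleles of mt-Co2 between subsets, and 90, 5 and 1 in the contrasts of Thy, CD24_CD29 and Thy_6C3. The coverage offset called 90 in the first and 7 in the second of these. With 1 library left out at a time, 0 to 92 were called between subsets and for Thy and 0 to 5 for CD24, the highest each without Thy replicate 1, where 65.8%, 68.7% and 4.62% were called in the genome. For CD24_CD29 it was 0 to 1, the highest without its replicate 1 (genome 0.66%). The replicate block called 0 alleles of the gene and changed no other call in it. Between numbers, 1 allele was called at a threshold of 2% (8 tested, genome 29.9%), 0 by exact swaps and 4 to 5 with a library left out. The causes were not tested.

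Alleles in all 8 libraries numbered 7, 1 and 1 in replicate 1 and 5, 1 and 1 in replicate 2 at 0.5%, at 2% and without A>C and T>G. Alleles in 1 library of replicate 1 numbered 131 at 0.5%, 1 at 2% and 7 to 12 with a library left out. In replicate 2 they numbered 574, 5 and 19 to 109, and 24 without A>C and T>G. Counted alleles in all numbered 761, 8, 36 to 128 and 42 in that order. The synonymous share was 50% at 2% and 20.2% to 27.8% with a library left out. The load was 0.0324% from alleles at 1% or more, 0.160% from transitions and 0.453% to 0.501% with a library left out. The log2 changes of the alleles called between numbers kept their sign with a library left out. The numbers of alleles called, between subsets and between numbers, did change with the way of fitting, as given above.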
